A study of Mus musculus with 12 samples.

Results

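The genes described here are the amino acid transporters of the solute carrier (SLC) superfamily, taken as the protein-coding mouse genes of the SLC1, SLC3, SLC6, SLC7, SLC36, SLC38 and SLC43 families by their symbols. Of 64 such genes in the count table, 44 had at least 10 counts in 3 or more libraries, among 15425 genes that were tested in all. Of the other 20, 5 had no count in any library (*Slc36a3*, *Slc6a14*, *Slc6a18*, *Slc6a2* and *Slc7a12*) and 15 stayed under the count limit (*Slc1a6*, *Slc1a7*, *Slc38a4*, *Slc38a8*, *Slc3a1*, *Slc6a12*, *Slc6a19*, *Slc6a20b*, *Slc6a3*, *Slc6a4*, *Slc6a5*, *Slc6a7*, *Slc7a13*, *Slc7a15* and *Slc7a9*). The RNA came from CD11b-positive cells of the cerebral cortex of 12 male mice, which were separated on magnetic beads after digestion of the tissue with papain. The 4 groups of 3 mice were WT (C57BL/6J) and App NL-G-F mice, each injected with PBS (veh) or with rh Bri2 BRICHOS R221E, and are called WT veh, WT BRICHOS, App veh and App BRICHOS. In App NL-G-F mice, the mouse *App* locus holds humanized sequence and mutations of familial Alzheimer's disease, and rh Bri2 BRICHOS R221E is a recombinant chaperone domain of human Bri2 with a replaced arginine. In all groups the 24 injections into a vein began at an age of 9 months and ran over 12 weeks, at 10 mg/kg in the BRICHOS groups, and the mice were killed after 4 further weeks without injections.

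Amino acid transporters carry amino acids across the plasma membrane and across the membrane of the lysosome. SLC1 proteins take up glutamate or exchange small neutral amino acids, SLC6 proteins use the sodium gradient to clear GABA, glycine, proline and taurine, and SLC38 proteins move glutamine and other neutral amino acids. SLC7 light chains exchange amino acids across the membrane and most of them need the heavy chain encoded by *Slc3a2* to reach it. In the brain, glutamate and GABA uptake is mainly the work of astrocytes, whereas microglia are known for lysosomal breakdown of engulfed protein, whose amino acids leave the lysosome through carriers such as those of SLC36 and SLC38.

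Between 12433402 and 17889654 counts were assigned to genes per library, and 3 counts, the smallest level taken as detectable, correspond to 0.169 to 0.226 CPM. The 10 microglial markers, among them *P2ry12*, *Tmem119* and *Cx3cr1*, summed to between 27058 and 33070 CPM in every library. Markers of other cells were present beside them. The 14 astrocyte markers summed to 457, 495 and 315 CPM in the WT veh libraries, 347, 504 and 534 CPM in WT BRICHOS, 2615, 2390 and 921 CPM in App veh, and 1184, 445 and 802 CPM in App BRICHOS, so that App veh replicates 1 and 2 stood apart from all other libraries. *App* itself was read at 546 to 614 CPM in App veh and at 622 to 836 CPM in WT veh, and gene counts do not tell the humanized from the mouse allele. In such bulk samples, fewer cells of a type and less RNA per cell cannot be told apart. The libraries were made with a stranded kit, but the strand setting of the counting and its treatment of reads shared between genes are not given in the sources used here. In the annotation, 12 reported members, *Slc1a1*, *Slc1a2*, *Slc38a9*, *Slc38a10*, *Slc43a2*, *Slc6a6*, *Slc6a9*, *Slc6a20a*, *Slc7a2*, *Slc7a4*, *Slc7a7* and *Slc7a10*, overlap another gene on the opposite strand, and no overlap on the same strand was found.

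Most RNA of the set came from a few carriers. Per kilobase of annotated exons and averaged over the 4 groups, *Slc3a2*, the heavy chain (chromosome 19, 8706882 to 8723369, minus strand, GRCm38), was highest at a level of 107 CPM per kb. *Slc7a8*, the light chain of the LAT2 exchanger of neutral amino acids, followed at 91.1, *Slc38a10* at 48.1, the taurine transporter *Slc6a6* at 47.4, the astrocytic glutamate transporters *Slc1a2* at 41.4 and *Slc1a3* at 35.0, and the glutamine carrier *Slc38a2* at 32.4 CPM per kb. The order depends on the length used. Per kilobase of the longest transcript, *Slc3a2* (135) and *Slc7a8* (112) still led, but *Slc1a3* was at 67.4, like *Slc38a10*, above *Slc6a6* at 64.8 and *Slc1a2* at 46.9. Lower came the light chain *Slc7a7* at 27.8, the lysosomal proton-coupled carrier *Slc36a1* at 24.6, the light chain *Slc7a5* of LAT1 at 24.4 and the lysosomal glutamine carrier *Slc38a7* at 14.6 CPM per kb. *Slc6a11* and *Slc43a2* were both at 10.6 CPM per kb. Between *Slc36a4* at 7.85 and *Slc38a9* at 2.23 CPM per kb lay, among others, *Slc38a3*, *Slc38a1*, *Slc7a6os*, *Slc7a6*, *Slc7a10*, *Slc1a4*, *Slc7a1*, *Slc6a9*, *Slc6a8*, *Slc1a5* and *Slc38a6*. *Slc7a11* was at 1.74, *Slc38a5* at 1.59, *Slc6a20a* at 1.37, *Slc43a3* at 1.31 and *Slc7a2* at 1.13 CPM per kb. The remaining members lay under 1 CPM per kb, namely *Slc7a4* (0.826), *Slc36a2* (0.822), *Slc1a1* (0.803), *Slc38a11* (0.563), *Slc6a17* (0.56), *Slc6a16* (0.383), *Slc6a13* (0.34), *Slc43a1* (0.195), *Slc7a3* (0.14), *Slc6a15* (0.114), *Slc6a21* (0.0902) and *Slc7a14* (0.0448). The symbol rule also takes genes with another substrate or role. *Slc43a3* encodes a purine nucleobase carrier, *Slc6a8* a creatine transporter, and *Slc7a6os*, which lies 2010 bp from *Slc7a6* on the other strand, no transporter.

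**Figure D1:**
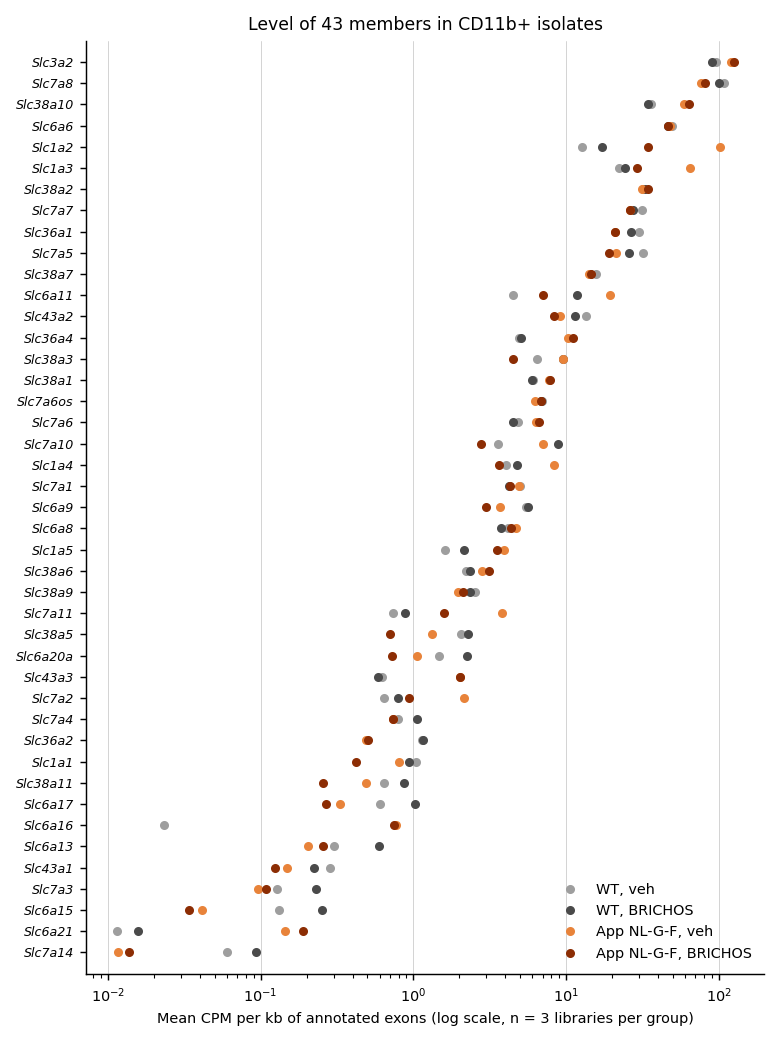
Mean level of 43 members in CPM per kb of annotated exons (log axis) in the 4 groups of 3 libraries. *Slc3a2* and *Slc7a8* lead in WT mice, *Slc1a2* shows the widest gap between App veh and the other groups among the well expressed members, and the point of *Slc6a16* in WT BRICHOS is missing because all 3 libraries were at 0.

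The promoters of the members were read from RefSeq (GRCm38.p6), which gave 43 start sites for 31 of the 44 members. The 250 bases before each start were searched on both strands for the letters of 4 motifs. The amino acid response element TGATGNAA, which ATF4 binds, was found before 3.45% of 32851 start sites and 4 of the members' 43, those of *Slc7a11*, *Slc6a21* and 2 starts of *Slc7a7*. The antioxidant response element TGACNNNGC of NRF2 was found before 10.2% of all and 9 of the members' starts, PU.1's GAGGAAG before 10.6% and 4, and the E-box CACGTG of lysosomal genes before 6.02% and 6, among them that of *Slc36a1*. Starts of one gene share sequence, and a match is a description of letters. Sequences are shown for 3 members, each with the lowest edgeR p-value in App veh against WT veh within a group described further on. They hold upstream bases only, 5′ to 3′ on the strand of the gene, with motif letters in capitals. *Slc7a11*, higher in App veh and moving with the astrocyte markers, holds the amino acid response element in both orientations at bases -66 to -59 and -47 to -40 (chr3:50443614-50443863, minus strand). *Slc7a8*, lower in App NL-G-F mice, holds the PU.1 letters at -195 to -189 on the opposite strand (chr14:54781887-54782136, minus strand), and *Slc36a4*, higher in App NL-G-F mice, none of the 4 (chr9:15709488-15709737, plus strand).
Slc7a11: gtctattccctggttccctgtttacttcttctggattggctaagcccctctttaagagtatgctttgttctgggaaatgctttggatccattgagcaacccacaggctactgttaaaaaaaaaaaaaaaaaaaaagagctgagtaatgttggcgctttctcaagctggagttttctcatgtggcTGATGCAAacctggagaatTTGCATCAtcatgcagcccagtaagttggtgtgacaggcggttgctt
Slc7a8: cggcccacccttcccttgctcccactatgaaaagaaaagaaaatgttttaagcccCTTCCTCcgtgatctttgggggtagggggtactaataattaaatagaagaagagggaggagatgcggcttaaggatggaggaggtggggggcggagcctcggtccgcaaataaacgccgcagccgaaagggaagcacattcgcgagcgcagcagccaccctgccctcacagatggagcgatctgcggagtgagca
Slc36a4: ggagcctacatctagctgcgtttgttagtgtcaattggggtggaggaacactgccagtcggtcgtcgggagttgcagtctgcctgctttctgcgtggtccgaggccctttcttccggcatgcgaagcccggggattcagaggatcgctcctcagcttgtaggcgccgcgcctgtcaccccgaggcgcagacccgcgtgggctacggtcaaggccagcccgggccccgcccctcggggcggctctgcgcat

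The first question was how the transporters of App NL-G-F mice differed from those of WT mice. In App veh against WT veh, 17 of 44 members were higher and 8 were lower at an adjusted p-value under 0.05, where 20.1% of all tested genes were higher and 16.9% lower. The groups did not overlap for 14 members that were higher (25.5% of all genes) and 13 that were lower (25.3%). Between App BRICHOS and WT BRICHOS, which are separate mice, 10 members were higher (20.8% of all genes) and 14 were lower (21.8%), and the groups did not overlap for 11 higher (25.4%) and 15 lower members (26.4%). The median log2 fold change of the members was -0.04 in the veh groups and -0.23 in the BRICHOS groups, beside -0.02 and -0.04 over all tested genes. The same 10 members were higher in both comparisons, which is 58.8% of those higher with veh and 100% of those higher with BRICHOS, beside 75.1% and 72.6% over all genes. Likewise 6 members were lower in both, 75.0% and 42.9% of the 2 lists, beside 68.3% and 53.1% over all genes. No member was called in opposite directions, and over all genes such calls were also rare. They were 22 of the 3099 genes higher with veh and 4 of the 2611 lower with veh. With the astrocyte marker score as a covariate, 7 members were higher and 5 lower in the veh comparison, and 12 were higher and 17 lower in the BRICHOS comparison. The share of all tested genes called was computed for the main fit only, not for this or any other alternative fit.

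**Figure D2:**
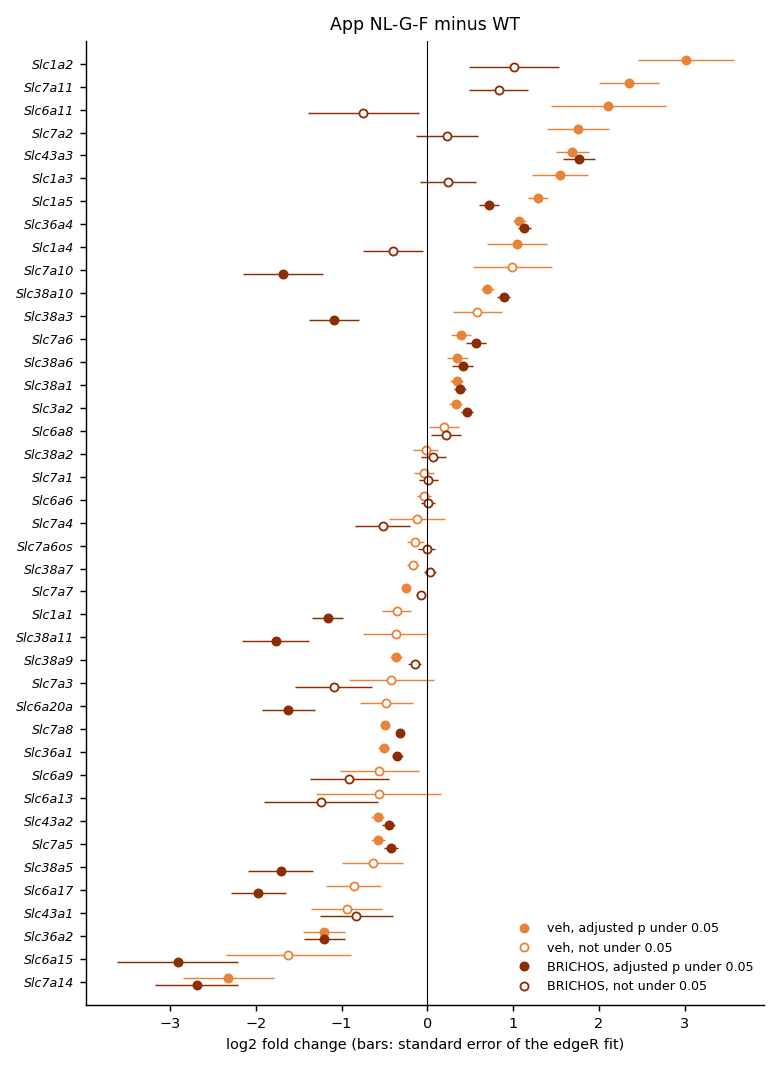
Log2 fold change of App NL-G-F against WT mice for 41 members in veh-treated and in BRICHOS-treated mice, with the standard error of the fit as bars and filled points at an adjusted p-value under 0.05. *Slc36a4*, *Slc43a3* and *Slc38a10* were displaced alike in both comparisons, whereas *Slc1a2*, *Slc7a11* and *Slc6a11* had values of 2.11 to 3.01 with veh and -0.75 to 1.01 with BRICHOS. *Slc6a16* and *Slc6a21* are left out because WT libraries held 0 to 2 counts.

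A first group of 10 members was higher in App NL-G-F mice with either injection. Its lowest p-value belonged to *Slc36a4*, an SLC36 family carrier of proline and tryptophan (chromosome 9, 15709738 to 15743361, plus strand, promoter shown above). *Slc36a4* was at 32.2, 32.9 and 31.2 CPM in WT veh, 34.5, 29.5 and 35.5 CPM in WT BRICHOS, 67.5, 63.7 and 71.7 CPM in App veh, and 68.4, 75.2 and 73.8 CPM in App BRICHOS. The 2 strains did not overlap. It was 2.11-fold higher in App veh than WT veh (log2 fold change 1.07 ± 0.077 SE, adjusted p = 9.31e-07) and 2.18-fold higher in App BRICHOS than WT BRICHOS (adjusted p = 5.82e-07).

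*Slc43a3*, the nucleobase carrier, was at 3.21, 2.9 and 2.23 CPM in WT veh, 2.26, 2.36 and 3.26 CPM in WT BRICHOS, 8.34, 9.18 and 9.55 CPM in App veh, and 8.13, 8.44 and 10.4 CPM in App BRICHOS. Every App NL-G-F library was above every WT library, by 3.23-fold with veh (1.69 ± 0.188, adjusted p = 3.26e-05) and 3.4-fold with BRICHOS. *Slc38a10* (chromosome 11, 120103960 to 120151346, minus strand), among the best expressed members, was at 222, 233 and 238 CPM in WT veh, 221, 209 and 229 CPM in WT BRICHOS, 360, 349 and 418 CPM in App veh, and 378, 406 and 439 CPM in App BRICHOS. Its groups did not overlap between the strains either, and the log2 fold changes were 0.70 ± 0.0762 and 0.89 ± 0.0764 (adjusted p = 2.68e-05 and 3.68e-06).

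*Slc1a5*, which encodes the glutamine and small neutral amino acid exchanger ASCT2, was at 6.02, 6.52 and 7.67 CPM in WT veh, 7.93, 9.73 and 9.32 CPM in WT BRICHOS, 16.3, 17.6 and 15.4 CPM in App veh, and 14.6, 15.2 and 14.8 CPM in App BRICHOS. The strains were again apart, by 2.44-fold with veh (1.29 ± 0.118, adjusted p = 6.72e-06) and by 1.65-fold with BRICHOS (0.72 ± 0.115, adjusted p = 0.000432). The heavy chain *Slc3a2* rose less, from 335, 341 and 331 CPM in WT veh to 435, 433 and 400 CPM in App veh, and from 295, 322 and 341 CPM in WT BRICHOS to 418, 488 and 409 CPM in App BRICHOS. That is 1.26-fold with veh (adjusted p = 0.00449) and 1.37-fold with BRICHOS (adjusted p = 0.00048), without overlap. The sodium-coupled glutamine carrier *Slc38a1* rose 1.27-fold and 1.3-fold, the light chain *Slc7a6* 1.31-fold and 1.48-fold, and *Slc38a6* 1.27-fold and 1.33-fold in the veh and BRICHOS comparisons. With the astrocyte score as a covariate, the veh calls were lost for *Slc3a2* (0.30 ± 0.127, adjusted p = 0.151), *Slc38a1* (0.26 ± 0.125, adjusted p = 0.199) and *Slc38a6* (0.53 ± 0.193, adjusted p = 0.0937). The veh call of *Slc38a6* was also lost in fits limited to the 2 groups, with no filter on low counts, and without any 1 of 8 libraries, and its BRICHOS call without WT BRICHOS replicate 2 or App BRICHOS replicate 2. That of *Slc7a6* with veh was lost without WT veh replicate 1 or 3 or App veh replicate 2 or 3 (adjusted p = 0.0579 to 0.0825).

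*Slc6a16* and *Slc6a21*, SLC6 members of unknown substrate, were nearly without counts in WT mice and lie 4145 bp apart on the plus strand of chromosome 7 (45241085 to 45273367 and 45277513 to 45288998). *Slc6a16* was at 0.137, 0 and 0.0744 CPM in WT veh, at 0 in all 3 WT BRICHOS libraries, at 1.88, 1.84 and 3.26 CPM in App veh, and at 2.71, 2.05 and 1.96 CPM in App BRICHOS. With 101 counts in App veh against 3 in WT veh, the ratio was 34.2 (95% exact interval 11.4 to 169, for counting error only). In App BRICHOS the mean of 2.24 CPM was at least 11.9-fold higher than the 0.189 CPM to which 3 counts per library in WT BRICHOS correspond at most. For *Slc6a21*, 25 counts in App veh stood against 2 in WT veh (ratio 12.7, interval 3.17 to 111), and 32 in App BRICHOS against 3 in WT BRICHOS (ratio 12.3, interval 3.85 to 62.7). Both were called in both comparisons, and the strains did not overlap in either. They reached 10 counts only in App NL-G-F libraries, however, and so entered the set only through the group where they were high. Their calls are therefore no independent evidence of a strain difference. With the astrocyte score as a covariate the veh call of *Slc6a21* was lost (2.42 ± 1.25, adjusted p = 0.236).

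A second group of 6 members was lower in App NL-G-F mice with either injection, and 4 of them were among the well expressed carriers. *Slc7a8* (chromosome 14, 54722209 to 54781946, minus strand) was at 540, 527 and 547 CPM in WT veh, 514, 499 and 491 CPM in WT BRICHOS, 369, 374 and 400 CPM in App veh, and 411, 388 and 408 CPM in App BRICHOS. The strains did not overlap. The log2 fold change was -0.50 ± 0.0482 with veh (adjusted p = 1.04e-05) and -0.32 ± 0.0481 with BRICHOS (adjusted p = 0.000289). *Slc7a5*, the light chain of the LAT1 exchanger of large neutral amino acids, was at 119, 119 and 113 CPM in WT veh, 102, 92.2 and 90.8 CPM in WT BRICHOS, 84.4, 83.1 and 67.2 CPM in App veh, and 70.0, 71.5 and 71.7 CPM in App BRICHOS. It was lower in App NL-G-F mice by a log2 fold change of -0.58 ± 0.0803 with veh (adjusted p = 0.000179) and -0.42 ± 0.0804 with BRICHOS.

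*Slc43a2*, which encodes LAT4, a facilitative carrier of branched-chain amino acids and phenylalanine, was at 143, 141 and 124 CPM in WT veh, 120, 115 and 108 CPM in WT BRICHOS, 92.6, 89.2 and 91.7 CPM in App veh, and 89.7, 75.2 and 86.7 CPM in App BRICHOS. *Slc36a1*, which exports small amino acids from the lysosome together with protons, was at 171, 161 and 172 CPM in WT veh, 150, 149 and 151 CPM in WT BRICHOS, 111, 114 and 128 CPM in App veh, and 124, 107 and 123 CPM in App BRICHOS. Both were lower in each App NL-G-F library than in any WT library, with log2 fold changes in the veh groups of -0.58 ± 0.0744 (adjusted p = 0.000104) and -0.51 ± 0.0669 (adjusted p = 0.000109). *Slc36a2*, whose gene lies 19272 bp from *Slc36a1* on the other strand, was lower at a much lower level, at 3.5 to 3.97 CPM in WT veh against 1.04 to 2.1 CPM in App veh (-1.21 ± 0.245, adjusted p = 0.00248). The 3 tested SLC36 members moved apart, with *Slc36a4* higher and *Slc36a1* and *Slc36a2* lower in App NL-G-F mice. Between the same groups, 5 of 6 border macrophage markers were lower in both comparisons (sums of 381 to 447 CPM in WT veh and 168 to 226 CPM in App veh). The 8 oligodendrocyte markers summed to 9708 to 17002 CPM in WT veh and 3250 to 5678 CPM in App veh, with 2 called lower with veh and 0 with BRICHOS. Of 10 microglial markers, 7 were lower and 2 higher with veh, and 6 were lower and 2 higher with BRICHOS. All 11 markers of disease-associated microglia were higher in both comparisons (7886 to 9037 CPM in WT veh and 48350 to 56251 CPM in App veh). Of 9 brain endothelial markers, 8 were lower in both comparisons (679 to 766 CPM in WT veh and 483 to 653 CPM in App veh), and of 6 neutrophil markers 6 were lower with veh and 4 with BRICHOS (34.2 to 426 CPM in WT veh and 13.6 to 35.3 CPM in App veh). Their part in the members' differences was not tested. The sixth member, *Slc7a14*, was scarce, at 0.298 to 0.957 CPM in WT veh and 0.0647 to 0.148 CPM, below the 3-count level, in App veh, and its veh call was lost with the astrocyte score as a covariate (adjusted p = 0.0641). It reached 10 counts only in WT libraries and entered the set through them.

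The 6 tested light chains did not move as one. In App veh, *Slc7a6* and *Slc7a11* were higher, *Slc7a5*, *Slc7a7* and *Slc7a8* lower, and *Slc7a10* was not called by edgeR (0.99 ± 0.462, adjusted p = 0.113). It was called higher by DESeq2 with only these groups and by edgeR without WT veh replicate 3. *Slc7a7*, the light chain of an exchanger of cationic for neutral amino acids, was at 102, 108 and 101 CPM in WT veh, 90.7, 92.1 and 90.6 CPM in WT BRICHOS, 84.4, 89.6 and 87.2 CPM in App veh, and 80.9, 90.8 and 86.9 CPM in App BRICHOS. It was lower in App veh than WT veh (-0.25 ± 0.0516, adjusted p = 0.00251), but the groups with BRICHOS overlapped (-0.08 ± 0.0516, adjusted p = 0.235). The veh call of *Slc7a7* was lost with the astrocyte score as a covariate (-0.19 ± 0.0879, adjusted p = 0.18). *Slc38a9*, which encodes the lysosomal arginine sensor of mTORC1, was at 42.0, 39.6 and 44.7 CPM in WT veh, 39.2, 37.7 and 40.2 CPM in WT BRICHOS, 33.6, 31.7 and 32.6 CPM in App veh, and 35.5, 37.8 and 32.1 CPM in App BRICHOS. It was lower with veh (-0.37 ± 0.0718, adjusted p = 0.00196), and this call was lost in that fit too (-0.29, adjusted p = 0.146). With BRICHOS its difference was -0.15 ± 0.0715 (adjusted p = 0.111). For *Slc7a7* and *Slc38a9* the strain differences with veh and with BRICHOS were not shown to differ from each other (adjusted p = 0.303 and 0.347 for the difference).

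**Figure D3:**
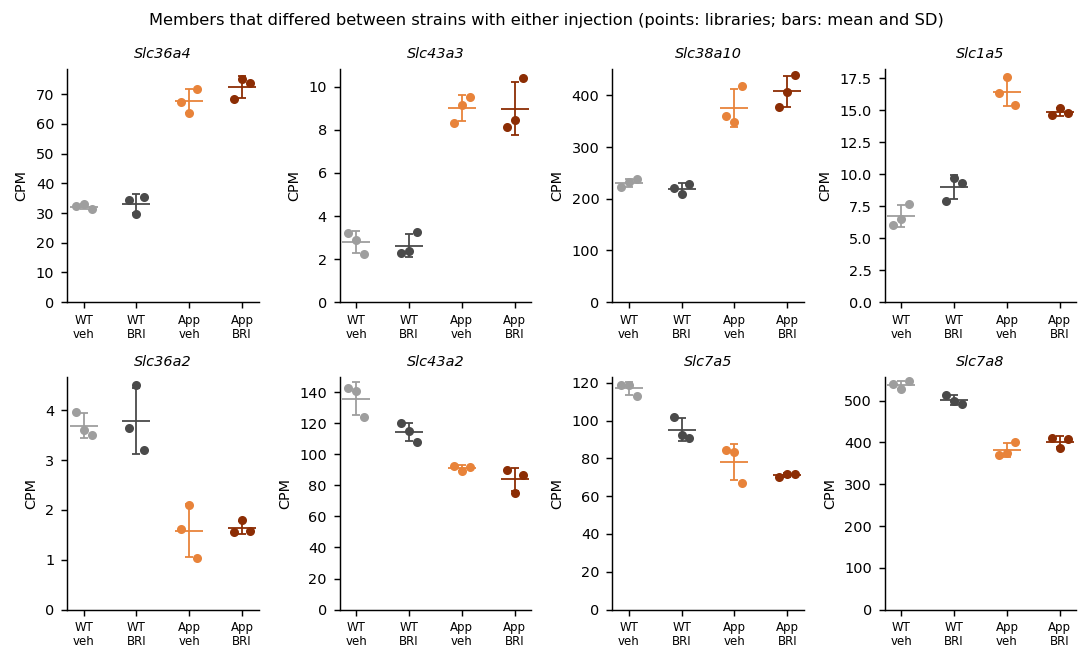
CPM in each of the 12 libraries for 8 members called in the same direction in both strain comparisons, with the mean and SD of each group of 3. The 4 members of the upper row were higher and the 4 of the lower row lower in every App NL-G-F library than in every WT library.

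Another group of 7 members was higher in App veh than WT veh, was not called by edgeR between the BRICHOS groups, and was lower in App BRICHOS than App veh at an unadjusted p-value under 0.05. The difference from WT veh and that from App BRICHOS use the same App veh libraries, so they are not independent of each other. Whether the 2 strain differences differed from each other is the contrast of treatment effects given further on, which none of the 7 passed at an adjusted p-value. Among them were the glutamate transporters *Slc1a2* and *Slc1a3*, the neutral amino acid exchanger *Slc1a4*, the GABA transporter *Slc6a11*, the cationic amino acid transporter *Slc7a2*, and *Slc7a11*, the light chain of the cystine and glutamate exchanger xCT. *Slc1a3*, *Slc1a4* and *Slc7a11* are also named in the study's own gene lists, which were drawn from these libraries and are no independent evidence of a direction.

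*Slc1a2* (chromosome 2, 102658659 to 102790784, plus strand), the main glutamate transporter of astrocytes, was at 207, 179 and 112 CPM in WT veh, 135, 275 and 262 CPM in WT BRICHOS, 1885, 1641 and 476 CPM in App veh, and 724, 203 and 428 CPM in App BRICHOS. App veh did not overlap WT veh, and its replicate 3 was below the first App BRICHOS library. The difference from WT veh was 8.03-fold (3.01 ± 0.559, adjusted p = 0.00144). *Slc1a3*, the other glutamate transporter of astrocytes, was at 197, 198 and 171 CPM in WT veh, 158, 235 and 232 CPM in WT BRICHOS, 726, 662 and 270 CPM in App veh, and 320, 171 and 247 CPM in App BRICHOS. It was 2.93-fold higher in App veh (1.55 ± 0.327, adjusted p = 0.00321).

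*Slc7a11* (chromosome 3, 49892526 to 50443614, minus strand) was at 10.9, 11.2 and 8.78 CPM in WT veh, 8.37, 15 and 13.4 CPM in WT BRICHOS, 67.6, 65.2 and 25.0 CPM in App veh, and 25.1, 16.3 and 24.3 CPM in App BRICHOS. It was 5.1-fold higher in App veh than WT veh (2.35 ± 0.349, adjusted p = 0.000298), and the App BRICHOS libraries were also all above the WT BRICHOS ones, though at an adjusted p of 0.0704 (0.83 ± 0.342). *Slc7a11* was called higher between the BRICHOS groups by DESeq2 with all libraries or only those groups, and by edgeR with only those groups, with no filter on low counts or without App veh replicate 3. *Slc1a4* was at 17.5, 15.8 and 14 CPM in WT veh, 15.5, 20.1 and 20.5 CPM in WT BRICHOS, 44.1, 38.6 and 14.6 CPM in App veh, and 19.9, 9.78 and 12.9 CPM in App BRICHOS. Its App veh values overlapped those of WT veh through replicate 3. Its veh call (1.04 ± 0.349, adjusted p = 0.0351) was lost in fits limited to the 2 groups, by edgeR and DESeq2 alike, and without any 1 of the WT veh replicates or App veh replicate 1 or 2 (adjusted p = 0.0647 to 0.141). *Slc6a11* was at 15 to 31.5 CPM in WT veh and 34.9 to 143 CPM in App veh, and its call (2.11 ± 0.671, adjusted p = 0.0285) was lost without WT veh replicate 2 or 3 or App veh replicate 1 or 2 (adjusted p = 0.0721 to 0.0968). *Slc7a2* was at 5.88, 6.04 and 5.66 CPM in WT veh, 4.72, 7.82 and 9.09 CPM in WT BRICHOS, 20.7, 28.1 and 10.3 CPM in App veh, and 10.6, 5.37 and 9.58 CPM in App BRICHOS.

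These members moved with the markers of astrocytes. No member is in that marker list, so a share of its sum is a ratio of the member's CPM to it. Of the 14 markers, 13 were higher in App veh than WT veh at an adjusted p-value under 0.05, *S100b* being the exception, and 13 were lower in App BRICHOS than App veh at an unadjusted one. For *Slc1a2*, *Slc1a3*, *Slc1a4*, *Slc6a11* and *Slc7a11*, the 6 App NL-G-F libraries came in the same order as in the sum of the astrocyte markers. They did so for 6 of the 44 members (13.6%) and for 2.09% of all tested genes. This group was picked as higher in App veh and lower in App BRICHOS, as the marker sum was. A shared order is thus in part built in, and the share over all genes is no fair baseline for it. *Slc7a11* amounted to 2.26 to 2.79% of that sum in WT veh, 2.41 to 2.98% in WT BRICHOS, 2.58 to 2.73% in App veh and 2.12 to 3.66% in App BRICHOS, ranges that overlap, while its own level differed 5.1-fold between the veh groups. *Slc1a2* was at 35.7 to 45.2% of the sum in WT veh and 51.7 to 72.1% in App veh, and *Slc1a3* 40.0 to 54.3% in WT veh and 27.7 to 29.3% in App veh. With the astrocyte marker score as a covariate, the strain difference of *Slc1a2* with veh was 0.40 ± 0.15 (adjusted p = 0.107), that of *Slc1a3* 0.01 ± 0.166 and that of *Slc7a11* 0.78 ± 0.224 (adjusted p = 0.0406). That of *Slc7a2* was 0.16 ± 0.277, and those of *Slc1a4* (-0.57 ± 0.252, adjusted p = 0.165) and *Slc6a11* (-1.0 ± 0.402, adjusted p = 0.128) turned below 0. In the same fit, *Slc1a2* (0.45 ± 0.0943) and *Slc7a11* (0.59 ± 0.136) were called higher and *Slc1a4* (-0.72 ± 0.152) and *Slc6a11* (-1.14 ± 0.241) lower in App BRICHOS than WT BRICHOS, with adjusted p-values of 0.00311 to 0.00543. That score differs between the groups itself, and which cells carried the transcripts was not tested.

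**Figure D4:**
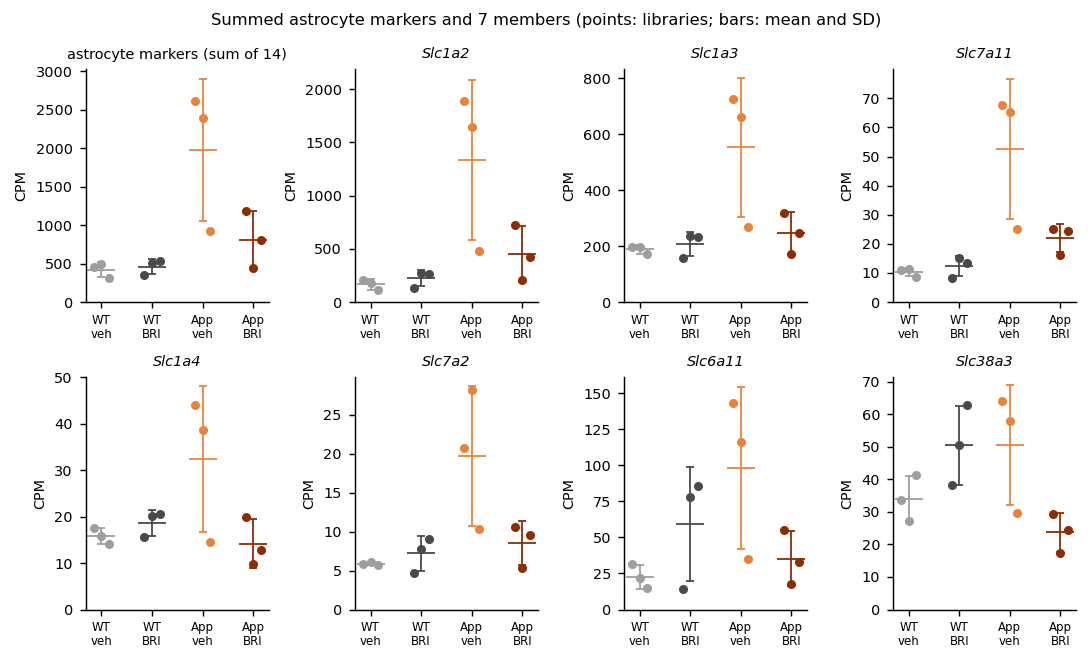
CPM in each of the 12 libraries for the sum of 14 astrocyte markers and for 7 members, with the mean and SD of each group of 3. App veh replicates 1 and 2 are the highest App NL-G-F libraries in every panel, and App veh replicate 3 lies within the range of the App BRICHOS libraries in all panels but that of *Slc38a3*, where it is at 29.7 CPM and the highest App BRICHOS library at 29.3 CPM.

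The last group of 8 members was lower in App BRICHOS than WT BRICHOS and was not called by edgeR between the veh groups. It held the glutamate and cysteine transporter *Slc1a1*, the glutamine carriers *Slc38a3* and *Slc38a5*, *Slc38a11*, the proline transporter *Slc6a20a*, the neuronal neutral amino acid transporters *Slc6a15* and *Slc6a17*, and *Slc7a10*, an exchanger of glycine and serine. *Slc1a1* was at 9.16, 9.6 and 7.0 CPM in WT veh, 6.61, 8.72 and 8.0 CPM in WT BRICHOS, 5.43, 7.8 and 6.81 CPM in App veh, and 3.68, 3.32 and 3.47 CPM in App BRICHOS. App BRICHOS was below all other libraries, at a log2 fold change of -1.16 ± 0.181 against WT BRICHOS (adjusted p = 0.000382). *Slc6a17* was at 5.27, 4.8 and 8.64 CPM in WT veh, 9.75, 9.84 and 12.3 CPM in WT BRICHOS, 3.62, 2.43 and 4.22 CPM in App veh, and 2.9, 1.53 and 3.77 CPM in App BRICHOS. The strains were apart with either injection, by -1.97 ± 0.324 with BRICHOS (adjusted p = 0.00053) and by -0.86 ± 0.321 with veh (adjusted p = 0.0545), and the difference of these values had an adjusted p of 0.291. With veh, *Slc6a17* was called lower by DESeq2 with all libraries or only these groups, and by edgeR with no filter on low counts, with the replicate block, or without WT veh replicate 2, App BRICHOS replicate 2 or App BRICHOS replicate 3. The BRICHOS call of *Slc7a10* (-1.68 ± 0.468, adjusted p = 0.0133) was lost without WT BRICHOS replicate 3 or App BRICHOS replicate 2. *Slc6a20a* differed by -1.62, *Slc38a5* by -1.71, *Slc38a11* by -1.77 and *Slc6a15* by -2.91 on the log2 scale, the last at no more than 2.23 CPM in any library. *Slc6a15* reached 10 counts only in WT libraries and entered the set through them.

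Several markers of other cells were lower between the same groups. At an adjusted p-value under 0.05, all 8 mural cell, all 7 choroid plexus and all 5 ependymal markers, 8 of 9 endothelial, 5 of 6 meningeal fibroblast and 6 of 9 neuronal markers were lower in App BRICHOS than WT BRICHOS. The choroid plexus markers summed to between 3283 and 6817 CPM in WT BRICHOS and between 651 and 982 CPM in App BRICHOS, and the mural markers to 259 to 350 CPM and 85.5 to 142 CPM. Their part in the 8 members' differences was not tested.

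Of the 44 members, 11 passed in neither strain comparison. Among them were 3 well expressed carriers. The taurine transporter *Slc6a6* was at 410, 419 and 421 CPM in WT veh, 432, 366 and 372 CPM in WT BRICHOS, 355, 431 and 426 CPM in App veh, and 385, 388 and 404 CPM in App BRICHOS (-0.04 ± 0.08 and 0.01 ± 0.08 in the strain comparisons). The groups overlapped throughout. *Slc38a2*, the glutamine carrier that amino acid shortage induces, had group means of 275 to 303 CPM (-0.02 ± 0.144 and 0.07 ± 0.144), and *Slc38a7* of 58.0 to 65.2 CPM (-0.17 ± 0.0717 and 0.03 ± 0.0716). The creatine transporter *Slc6a8* was at 25.7, 20.4 and 18.6 CPM in WT veh, 25.2, 17.5 and 16 CPM in WT BRICHOS, 23.7, 23.3 and 26.8 CPM in App veh, and 25.6, 19.1 and 23.5 CPM in App BRICHOS. *Slc7a1*, which takes up arginine and lysine, was at 59.0, 58.7 and 55.8 CPM in WT veh, 56.6, 45.9 and 44 CPM in WT BRICHOS, 61.0, 58.9 and 49.3 CPM in App veh, and 48.6, 43.8 and 54.9 CPM in App BRICHOS. *Slc7a6os* was at 28.4, 31.5 and 27.5 CPM in WT veh, 29.1, 28.7 and 28.9 CPM in WT BRICHOS, 26.0, 26.1 and 27.5 CPM in App veh, and 28.3, 33.5 and 24.5 CPM in App BRICHOS. The strains overlapped for these 3. With veh, 4 of the 11 were lower in App NL-G-F mice without overlap (*Slc38a7*, *Slc43a1*, *Slc6a13* and *Slc7a3*), beside 25.3% of all tested genes. With BRICHOS, 1 of the 11 was (*Slc6a13*), beside 26.4%. Both shares include the genes that were called, so they are no matched baseline for these 11. The share among all genes that passed in neither comparison was not computed. The glycine transporter *Slc6a9*, the GABA transporter *Slc6a13*, the cationic family members *Slc7a3* and *Slc7a4*, and *Slc43a1*, which encodes LAT3, were at 5.95 to 43.1, 0 to 2.51, 0.129 to 1.03, 1.9 to 5.43 and 0.393 to 1.82 CPM, with standard errors of at least 0.326 in the veh comparison.

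The second question was what rh Bri2 BRICHOS R221E changed in App NL-G-F mice. No member passed an adjusted p-value under 0.05 in App BRICHOS against App veh, where 0% of all genes were higher and 0.00648%, a single gene, lower. At an unadjusted p-value under 0.05, 0 members were higher (3.18% of all genes) and 12 were lower (7.67%). The groups did not overlap for 1 higher member, *Slc38a6* (6.39%), and 5 lower ones (7.06%), namely *Slc1a1*, *Slc1a5*, *Slc38a3*, *Slc38a5* and *Slc7a10*. The median log2 fold change was -0.08 beside 0.01 over all genes. DESeq2's Wald test with all libraries called 4 members lower at an adjusted p-value under 0.05 (*Slc1a1*, *Slc1a4*, *Slc38a3* and *Slc7a11*) and, with only these 2 groups in the fit, 2 (*Slc38a3* and *Slc7a10*). The share of all genes that DESeq2 called was not computed, so these counts cannot be read as particular to the members.

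The lowest p-value was that of *Slc1a1* (-0.93 ± 0.183, adjusted p = 0.212), whose values are given above. *Slc7a11* differed by -1.27 ± 0.331, *Slc1a3* by -1.17 ± 0.324, *Slc7a2* by -1.21 ± 0.351, and *Slc1a4* by -1.20 ± 0.351, with adjusted p-values of 0.291 to 0.294. The system N carrier *Slc38a3*, which releases glutamine from astrocytes, was at 33.6, 27.3 and 41.2 CPM in WT veh, 38.4, 50.4 and 62.7 CPM in WT BRICHOS, 64.2, 57.8 and 29.7 CPM in App veh, and 29.3, 17.4 and 24.5 CPM in App BRICHOS. App BRICHOS was below App veh without overlap, by a margin of 29.7 to 29.3 CPM at the nearest libraries (-1.09 ± 0.291, adjusted p = 0.291). *Slc1a2*, *Slc6a11*, *Slc7a10*, *Slc38a5* and *Slc38a11* were also among the 12, with log2 fold changes between -0.92 and -1.56.

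Beside the choice of test, the covariate and single libraries moved the number of these differences. With the astrocyte marker score as a covariate, 1 of the 12 was lower at an unadjusted p-value under 0.05, and this was *Slc1a1* (-0.79 ± 0.23), while *Slc1a2* was at -0.02 ± 0.117 *Slc6a11* at 0.42 ± 0.31 and *Slc7a11* at -0.26 ± 0.174. Of 9 brain endothelial markers 8, and of 8 mural cell markers 4, were also lower in App BRICHOS than App veh at an unadjusted p-value under 0.05 (endothelial sums of 483 to 653 CPM in App veh and 403 to 464 CPM in App BRICHOS), and their part was not tested. Without App veh replicate 3, the App veh library with the fewest astrocyte transcripts, 5 members were lower at an adjusted p-value under 0.05 (*Slc1a3*, *Slc1a4*, *Slc38a3*, *Slc7a2* and *Slc7a11*), and without App veh replicate 1 the 12 became 7. The shares of all genes in these fits were not computed. None of the 16 members called between the strains with either injection was among the 12, where 7.67% of all tested genes were lower. These 16 were picked as called alike in App veh and in App BRICHOS. The share lowered among all genes so picked was not computed. *Slc36a4* differed by 0.10 ± 0.075, *Slc43a3* by -0.01 ± 0.175, *Slc38a10* by 0.12 ± 0.0757, *Slc3a2* by 0.05 ± 0.0738, *Slc7a8* by 0.08 ± 0.0482, *Slc43a2* by -0.12 ± 0.0747 and *Slc36a1* by 0.00 ± 0.067 between App BRICHOS and App veh. *Slc1a5* (-0.15 ± 0.113) and *Slc38a6* (0.15 ± 0.119) differed without overlap, and the scarce *Slc6a21* and *Slc7a14* were at 0.36 ± 0.535 and 0.24 ± 0.67.

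**Figure D5:**
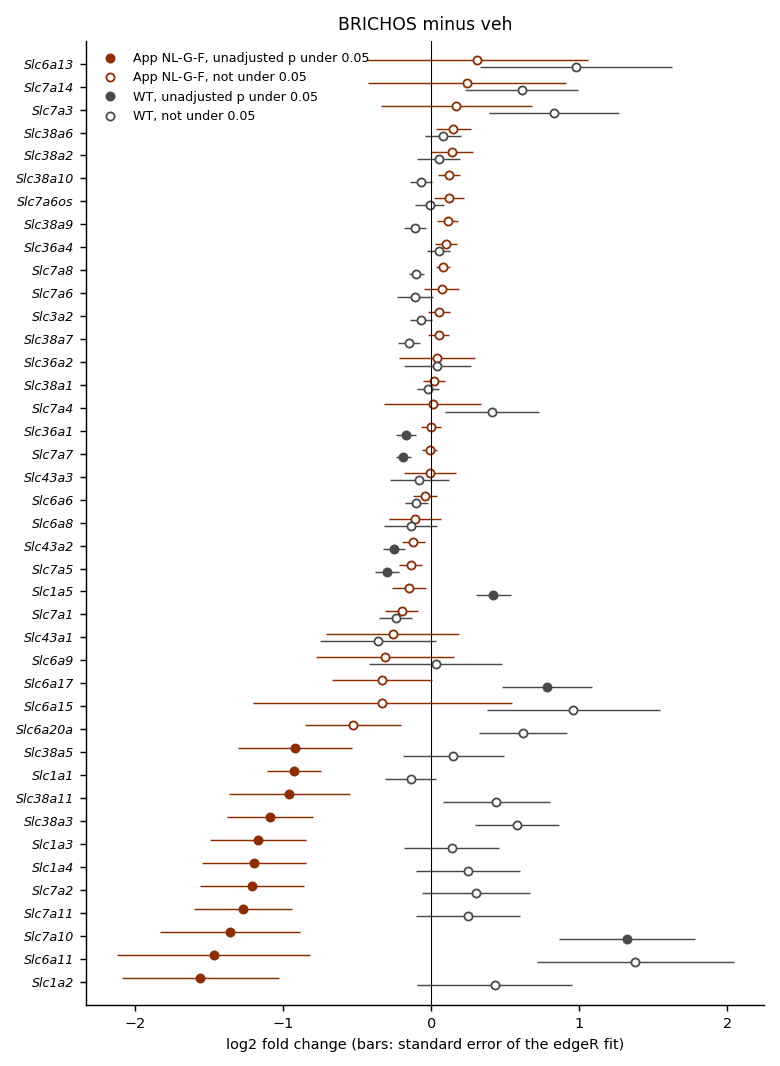
Log2 fold change of BRICHOS against veh in App NL-G-F and in WT mice for 41 members, with the standard error of the fit as bars and filled points at an unadjusted p-value under 0.05 (none passed an adjusted one). The 11 members with filled points in App NL-G-F mice were all lower in App BRICHOS, and in WT mice 10 of these 11 had values above 0, the exception being *Slc1a1*. Of these 10, *Slc7a10* alone had a filled point in WT mice, and the share of all genes above 0 was not computed.

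In WT mice, no member passed an adjusted p-value under 0.05 between BRICHOS and veh (0% of all genes higher and 0% lower). At an unadjusted one, 3 were higher (6.55% of all genes) and 5 lower (4.83%), and the groups did not overlap for 3 higher (8.35%) and 6 lower members (9.24%). Of the 5 lower, *Slc6a16* held only 2, 0 and 1 counts in WT veh and 0 in each WT BRICHOS library, below the 3-count level. DESeq2's Wald test called none at an adjusted p-value either. *Slc7a5* was lower in every WT BRICHOS library than in any WT veh library (-0.30 ± 0.0797), as were *Slc7a7* (-0.19 ± 0.0514) and *Slc43a2* (-0.25 ± 0.0739). *Slc1a5* was higher in each WT BRICHOS library (0.42 ± 0.119). The adjusted p-values of these 4 lay between 0.243 and 0.264.

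*Slc7a10* was at 5.47, 5.1 and 12.1 CPM in WT veh, 8.62, 18.7 and 28.6 CPM in WT BRICHOS, 19.3, 15.8 and 9.62 CPM in App veh, and 7.93, 3.77 and 5.74 CPM in App BRICHOS. It was 2.49-fold higher in WT BRICHOS than WT veh with overlapping groups (1.32 ± 0.46, adjusted p = 0.316). *Slc6a17* was higher in WT BRICHOS without overlap (0.78 ± 0.303, adjusted p = 0.379). The choroid plexus markers summed to 910, 867 and 3970 CPM in WT veh and to 3283, 4043 and 6817 CPM in WT BRICHOS, with 3 of 7 higher at an unadjusted p-value under 0.05. The border macrophage markers summed to 381 to 447 and 506 to 618 CPM, with 5 of 6 higher, and the part of either list was not tested. The 3 higher members became 1 without WT veh replicate 2 or without WT BRICHOS replicate 3, 6 without WT veh replicate 3 or without WT BRICHOS replicate 1, and 5 without App veh replicate 3. The 5 lower members became 3 without WT veh replicate 3, WT BRICHOS replicate 2 or WT BRICHOS replicate 3.

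The difference between the effects of BRICHOS in the 2 strains was a further contrast of that model. No member passed at an adjusted p-value under 0.05 (0% of all genes with a higher effect in App NL-G-F mice and 0.00648% with a lower one). At an unadjusted one, the effect was higher in App NL-G-F mice for 2 members, *Slc7a7* and *Slc7a8* (5.23% of all genes), and lower for 14 (9.54%). Among the lowest p-values were those of *Slc7a10* (-2.68 ± 0.658), *Slc38a3* (-1.67 ± 0.407) and *Slc1a5* (-0.57 ± 0.164), with adjusted p-values of 0.157 to 0.189. For *Slc1a5* the groups separated in both strains in opposite directions, with all WT BRICHOS libraries above WT veh and all App BRICHOS libraries below App veh. DESeq2's Wald test with all libraries called *Slc38a3*, *Slc7a10* and *Slc7a11* at an adjusted p-value under 0.05, and without App veh replicate 3 edgeR called *Slc1a3*, *Slc1a4*, *Slc38a3* and *Slc7a11*. For neither fit was the share of all genes computed. The 2 with a higher effect became 5 without App veh replicate 3, 1 without WT BRICHOS replicate 1 and 0 without WT BRICHOS replicate 3. With the astrocyte score as a covariate, *Slc1a5* alone of the 14 stayed under an unadjusted 0.05.

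Genes that act on the amino acids these carriers move were counted in 9 lists, at an adjusted p-value under 0.05 for the strain comparisons. Over all tested genes, 20.1% were higher and 16.9% lower with veh, and 20.8% and 21.8% with BRICHOS. The medians over all tested genes were -0.02 and -0.04 on the log2 scale. No list was tested as a set, and a count near these shares is no result about its list. Of 26 tested genes of the ATF4 and amino acid response, 8 were higher and 1 was lower in App veh than WT veh, and 9 were higher and 3 lower in App BRICHOS than WT BRICHOS, with medians of 0.09 and 0.2 on the log2 scale. The seryl-tRNA synthetase *Sars* rose by 0.55 ± 0.077 with veh and 0.66 ± 0.077 with BRICHOS, *Psat1*, an enzyme of serine synthesis, by 1.54 ± 0.223 and 1.61 ± 0.223, the pseudokinase *Trib3* by 1.75 ± 0.302 and 1.57 ± 0.304, and the translation repressor *Eif4ebp1* by 0.53 ± 0.103 and 0.41 ± 0.103. *Psat1* had means of 87.4 CPM in WT veh and 254 CPM in App veh. The alanyl-tRNA synthetase *Aars* was lower with veh (-0.22 ± 0.0564). *Atf4* itself differed by -0.06 ± 0.148 and -0.04 ± 0.148.

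Of 32 genes of lysosomal amino acid sensing by mTORC1, 10 were higher and 4 lower with veh, and 13 higher and 3 lower with BRICHOS (medians 0.04 and 0.01). The Rag GTPase gene *Rragd* rose most, from a mean of 6.66 CPM in WT veh to 39.5 CPM in App veh (2.57 ± 0.146, adjusted p = 1.44e-07). *Fnip2* (0.97 ± 0.0835), *Rragc* (0.53 ± 0.0485) and the Ragulator gene *Lamtor1* (0.33 ± 0.0479) were also higher, and *Rptor* (-0.34 ± 0.0417), the mTORC1 scaffold, *Sesn1* (-0.54 ± 0.0835), *Flcn* (-0.35 ± 0.0703) and *Mios* (-0.34 ± 0.0964) lower with veh. Of 15 genes of glutathione synthesis and the NRF2 response, for which xCT imports cystine, 4 were higher and 2 lower with veh and 4 higher and 4 lower with BRICHOS (medians 0.02 and -0.13). *Nfe2l2* (1.03 ± 0.134), which encodes NRF2, *G6pdx* (0.27 ± 0.0419), *Srxn1* (1.19 ± 0.291) and *Txnrd1* (0.90 ± 0.231) rose with veh, and *Ggt5* (-1.38 ± 0.0638) and *Gclc* (-0.38 ± 0.0723), the catalytic subunit of the first enzyme of glutathione synthesis, fell.

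Of 11 enzymes of glutamate, glutamine, GABA and proline, 7 were higher and none lower with veh, and 3 were higher and 1 lower with BRICHOS (medians 0.36 and -0.01). The aspartate aminotransferase genes *Got1* (1.73 ± 0.13 and 1.65 ± 0.128) and *Got2* (0.41 ± 0.0753 and 0.36 ± 0.0748) were higher in both comparisons. *Abat*, which breaks down GABA, was higher with veh (1.34 ± 0.349) and at -0.27 ± 0.348 with BRICHOS, and the proline dehydrogenase gene *Prodh* was higher with veh (1.0 ± 0.265) and at 0.06 ± 0.262 with BRICHOS. Of 6 serine and glycine enzymes, 4 were higher and 1 lower with veh, and none higher and 1 lower with BRICHOS (medians 0.39 and -0.06). *Gldc* of the glycine cleavage system was at 2.25 ± 0.465 with veh and -0.06 ± 0.454 with BRICHOS, *Amt* at 0.99 ± 0.278 and -0.05 ± 0.28, *Gcsh* at 0.57 ± 0.154 and 0.13 ± 0.154, and *Dld* at 0.22 ± 0.0637 and 0.15 ± 0.0635, while *Shmt1* was lower (-0.69 ± 0.208 and -0.70 ± 0.207). The difference between the comparisons had adjusted p-values of 0.209 for *Abat*, 0.278 for *Prodh* and 0.176 for *Gldc*. The astrocyte marker sums given above move between the same groups, and their part in these enzymes was not tested.

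Among 12 arginine and polyamine enzymes, 5 were higher and none lower with veh and 6 higher and 1 lower with BRICHOS (medians 0.15 and 0.29), with *Ass1* (1.79 ± 0.267), *Asl* (0.46 ± 0.0887), *Oat* (0.45 ± 0.106) and *Sms* (0.35 ± 0.116) higher with veh. Of 7 genes of tryptophan, cysteine and taurine metabolism, 3 were higher and 2 lower with veh and 3 higher and 3 lower with BRICHOS (medians 0.57 and -0.55). *Kynu*, an enzyme of the kynurenine pathway, rose from means of 0.976 CPM in WT veh and 1.42 CPM in WT BRICHOS to 12.8 CPM in App veh and 17.0 CPM in App BRICHOS (3.70 ± 0.2 and 3.57 ± 0.187). *Cdo1*, which oxidizes cysteine (3.10 ± 0.378), and *Haao* (0.57 ± 0.113) were higher with veh, and *Csad*, an enzyme of taurine synthesis (-0.48 ± 0.0729), and *Afmid* (-0.94 ± 0.229) lower. Of 9 branched-chain amino acid enzymes, 2 were higher, *Bckdk* (0.30 ± 0.0668) and *Ivd* (0.34 ± 0.0988), and none lower with veh, and 1 was higher and 3 lower with BRICHOS (medians 0.04 and -0.27).

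Of 21 amino acid and peptide transporters of other families, 8 were higher and 1 lower with veh and 9 higher and 3 lower with BRICHOS (medians 0.17 and 0.23). *Mfsd12*, a lysosomal cysteine importer, rose from means of 46.8 to 124 CPM with veh (1.41 ± 0.0797) and from 48.7 to 147 CPM with BRICHOS (1.59 ± 0.0796). The aromatic amino acid carrier *Slc16a10* (0.68 ± 0.085), the lysosomal peptide and histidine carrier *Slc15a3* (1.21 ± 0.171) and the mitochondrial aspartate and glutamate carrier *Slc25a13* (1.03 ± 0.159) were higher and the neuronal vesicular glutamate transporter *Slc17a7* (-2.73 ± 0.439) lower with veh. Across these 9 lists no gene passed an adjusted p-value under 0.05 between BRICHOS and veh in either strain by edgeR, and 8 of their 139 genes were higher and 15 lower at an unadjusted one in App NL-G-F mice (3.18% and 7.67% of all genes), and 9 higher and 8 lower in WT mice (6.55% and 4.83%).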

How the data were processed

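Gene counts were made by the authors and deposited as 1 table of raw counts per Ensembl gene for the 12 libraries, with no normalization. Per the labels' processing notes, reads were checked with FastQC 0.11.8, aligned to GRCm38 with STAR 2.6.1d and counted with featureCounts 1.5.1. Every column matched 1 sample, and 0 were left out. Symbols and positions came from the GRCm38 annotation and promoters from RefSeq GRCm38.p6.

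CPM used TMM-scaled library sizes. CPM per kb divided CPM by the length of a gene's merged exons. The astrocyte marker score, an alternative covariate, was the mean log2 CPM of the 14 astrocyte markers. Genes kept by filterByExpr (15425) were fitted with edgeR 4.0.16 (R 4.3.3, quasi-likelihood, 1 coefficient per group, all libraries), and p-values were adjusted after Benjamini and Hochberg over all of them. The fit was tested on simulated counts. DESeq2 1.42.0, the authors' tool, was an alternative. Tables and plots used Python 3.11.15, pandas 2.3.3 and matplotlib 3.10.9. Samples of a group are separate mice.

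The members, lists and tests were chosen with earlier results of these data known. Values in every library are given for the 12 members with the lowest p in App veh against WT veh, the 6 in each treatment comparison, the 4 in the difference of effects, *Slc1a3*, *Slc1a4* and *Slc7a11*, and the best expressed member of each role group. Of each gene list, up to 4 called genes per direction with the lowest p with veh are named. *Atf4*, *S100b*, *App* and 3 microglial markers are named outside this rule, *Atf4* and *S100b* after their values were seen. 1 member is included in the counts but is not reported here.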

Additional observations from a re-analysis of the deposited data

How the results depend on the processing

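With the astrocyte marker score as a covariate, 3 called values changed sign, the veh strain differences of *Slc1a4* (-0.57) and *Slc6a11* (-1.0) and the treatment difference of *Slc6a11* in App NL-G-F mice (0.42). No other called value given in the report changed sign under an alternative that was run. With an absolute log2 fold change of at least 1 required in addition, 2 members were lower in App veh than WT veh, 4 were higher in App BRICHOS than WT BRICHOS, 1 was higher and 1 lower in WT BRICHOS than WT veh, and the higher difference of treatment effects held for 0. The lower one in WT mice, at an unadjusted p-value, was *Slc6a16*, which stayed below the 3-count level in every WT library and shows no measurable decrease. With the astrocyte marker score as a covariate, 7 were higher and 5 lower in App veh, 1 was lower in App BRICHOS than App veh, and the difference of effects held for 0 higher and 1 lower. DESeq2 with all libraries called 4 lower in App BRICHOS than App veh and 3 with a lower difference of effects at an adjusted p-value. With only the compared groups it called 2 members lower in App BRICHOS at an adjusted p-value, and 5 were higher in WT BRICHOS at an unadjusted one. edgeR on the compared groups and a fit with no filter on low counts each gave 6 members higher in WT BRICHOS at an unadjusted p-value, and the latter 2 with a lower difference of effects at an adjusted p-value. With 10 counts in every library 1, and with DESeq2's size factors 4, had a higher difference of effects at an unadjusted p-value. The requirement of 10 counts in every library left 15 members higher and 7 lower with veh at an adjusted p-value. With BRICHOS it left 8 higher and 11 lower. With the replicate block, 5 members were higher in WT BRICHOS at an unadjusted p-value. The replicate block gave 17 higher and 9 lower with veh and 10 and 15 with BRICHOS. Deviations of same-numbered samples from their group means correlated at -0.0148 to 0.227, not over 0.1 in every pair, so the numbers were not taken to mark a pairing. Leaving out 1 library at a time gave 12 to 17 higher and 8 to 10 lower members in App veh, and 9 to 11 and 13 to 16 in App BRICHOS against WT BRICHOS. In App BRICHOS against App veh it gave 0 to 5 lower at an adjusted p-value, and 0 to 2 higher and 7 to 13 lower at an unadjusted one. It gave 1 to 6 higher and 3 to 7 lower in WT mice at an unadjusted p-value, and for the difference of effects 0 to 4 lower at an adjusted p-value and 0 to 5 higher and 11 to 15 lower at an unadjusted one. The cause of these moves was not tested, and the share of all genes called was not computed for any alternative. With 3 mice a group an exact permutation test of 1 gene cannot go below p = 0.1.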
